A study of Mus musculus with 237 samples.

Results

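The platelet-derived growth factor (PDGF) receptors and ligands were described in single cells of the embryonic mouse kidney. The set was chosen by gene symbol and holds 6 of the 36186 gene entries measured: the 2 receptor genes Pdgfra and Pdgfrb and the 4 ligand genes Pdgfa, Pdgfb, Pdgfc and Pdgfd. The labels place all but 1 of the 237 cells in 5 groups. There were 44 cap mesenchyme cells of Pax2 mutants at E18.5, where E gives the embryonic day, called E18.5 mutant here, 71 wild-type interstitium cells at E18.5 and 74 wild-type cells of the cap mesenchyme or derived from it at E18.5. At E13.5 there were 29 Pax2 mutant cap mesenchyme cells and 18 wild-type cap mesenchyme cells with their derivatives. All groups have a strain labelled mixed, and the labels do not state the Pax2 allele or its zygosity. Nephrons arise from the cap mesenchyme, the interstitium is the stroma around it, and Pax2 is a transcription factor gene active in nephron progenitors. Cells were enriched by flow sorting and captured singly on a Fluidigm C1, and the gate is not described in the labels. Titles of the interstitium cells carry the name FoxD1_GCE, which the labels do not explain, so Foxd1 in that group may have been part of how its cells were chosen. The series asks how Pax2 bears on the boundary between these lineages.

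PDGFs are dimeric growth factors that bind receptor tyrosine kinases on mesenchymal cells. Homodimers of PDGF-A and of PDGF-C bind receptor alpha, PDGF-B binds both receptors, and PDGF-D binds mainly receptor beta. PDGF-C and PDGF-D are secreted in a latent form and need a protease to release the growth factor domain. In the developing kidney receptor beta is known for the recruitment of mesangial cells and pericytes by PDGF-B from endothelium, and receptor alpha marks stromal cells and fibroblasts.

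Embryos are not named in the labels. Every group is therefore treated as 1 sample, and differences between groups are given untested. An SD is the spread over cells, and the range after a share is its exact Clopper-Pearson interval at 95%, for counting error alone. Levels are RPKM, read counts scaled to gene length and to the total of the cell, and detection means at least 1 RPKM. Read depth is unknown, and the median number of genes detected per cell, 3643 in E18.5 mutant, 5178 in interstitium, 5210.5 in E18.5 cap, 4560 in E13.5 mutant and 5566 in E13.5 cap cells, stands in for it. The pools numbered in the sample titles largely followed the groups: E18.5 mutant cells were in pool 4, E18.5 cap cells in pool 2, and all E13.5 cells in pool 3, with 22 interstitium cells in pool 2 and 49 in pool 3. Sex differed as well, since 42 of the 44 E18.5 mutant cells, 67 of the 74 E18.5 cap cells and 27 of the 29 E13.5 mutant cells had Xist without Y-linked transcripts. By contrast 70 of the 71 interstitium cells and 17 of the 18 E13.5 cap cells had Y-linked transcripts without Xist. Each group also has a date of its own in the titles, the same for the interstitium cells of both pools. Date and group cannot be told apart in any comparison, nor can pool and sex in most.

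Pax2 itself was at 1 RPKM or more in 0 of 44 E18.5 mutant cells (interval up to 8.04%), 18 of 71 interstitium cells and 56 of 74 E18.5 cap cells. Pax2 was still found in 17 of 29 E13.5 mutant cells, against 15 of 18 E13.5 cap cells. The table gives 1 value per gene, so it does not show whether these reads come from a deleted part. The labels were set against defining markers. Six2, a factor of nephron progenitors, was found in 1 of 44 E18.5 mutant cells, 19 of 71 from the interstitium and 62 of 74 E18.5 cap cells, and in 9 of 29 E13.5 mutant and 14 of 18 E13.5 cap cells. Foxd1, a factor of the interstitium, was found in 27 of 44 E18.5 mutant cells, 41 of 71 from the interstitium and 25 of 74 E18.5 cap cells, and in 5 of 29 E13.5 mutant and 4 of 18 E13.5 cap cells. E18.5 mutant cells, labelled cap mesenchyme, thus lacked the cap marker nearly throughout, and some cells of the other groups carried the marker of the other lineage.

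Promoter windows from the sequence table used here are shown for 4 members, Pdgfra, Pdgfd, Pdgfa and Pdgfc, since the study is of a transcription factor. None is shown for Pdgfrb or Pdgfb. The windows are from RefSeq on GRCm38.p6, which has the coordinates of mm10, and run from 250 bases before to 50 bases after an annotated start. Their places are chr5:75152001-75152300 on the plus strand for Pdgfra, chr9:6168236-6168535 on the plus strand for Pdgfd, chr5:138994895-138995194 on the minus strand for Pdgfa and chr3:81036166-81036465 on the plus strand for Pdgfc. RefSeq lists 2 windows for Pdgfa, and the one nearest the deposited start is shown. Capitals mark a match on either strand to one of 4 motifs. These are the TATA box, TATAAA, the GC box, GGGCGG, the CCAAT box, and a core of Pax2 sites, GTCACGC.
Pdgfra: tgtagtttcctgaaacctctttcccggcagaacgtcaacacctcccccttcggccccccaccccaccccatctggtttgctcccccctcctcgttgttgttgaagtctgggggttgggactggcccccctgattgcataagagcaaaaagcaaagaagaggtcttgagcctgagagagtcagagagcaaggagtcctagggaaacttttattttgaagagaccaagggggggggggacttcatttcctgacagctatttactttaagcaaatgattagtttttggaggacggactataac
Pdgfd: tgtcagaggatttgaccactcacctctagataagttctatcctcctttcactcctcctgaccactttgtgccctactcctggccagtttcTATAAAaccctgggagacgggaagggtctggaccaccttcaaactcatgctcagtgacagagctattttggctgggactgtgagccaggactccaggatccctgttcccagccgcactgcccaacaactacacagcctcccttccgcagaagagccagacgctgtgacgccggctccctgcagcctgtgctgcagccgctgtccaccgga
Pdgfa: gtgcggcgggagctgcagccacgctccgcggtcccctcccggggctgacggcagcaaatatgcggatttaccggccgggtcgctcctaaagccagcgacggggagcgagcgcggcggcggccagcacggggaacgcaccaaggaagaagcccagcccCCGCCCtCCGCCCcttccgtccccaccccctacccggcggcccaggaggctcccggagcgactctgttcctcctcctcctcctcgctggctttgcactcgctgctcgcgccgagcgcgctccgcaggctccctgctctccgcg
Pdgfc: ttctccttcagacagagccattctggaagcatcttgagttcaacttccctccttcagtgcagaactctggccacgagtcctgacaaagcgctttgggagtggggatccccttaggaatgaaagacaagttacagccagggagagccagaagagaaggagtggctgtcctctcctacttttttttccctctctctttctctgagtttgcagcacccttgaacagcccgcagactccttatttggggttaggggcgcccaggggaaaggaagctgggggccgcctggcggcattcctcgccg

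The letters GTCACGC stand in none of these 4 windows, and 2.09% of the 32851 windows of the same length in the table hold them. CCAAT was likewise absent from the 4 windows and is found in 37.4% of all windows. The Pdgfa window holds 2 GC boxes, both on the opposite strand and so printed as CCGCCC, which overlap no other motif (35.7% of all windows hold at least 1), and the Pdgfd window holds 1 TATA box (13.6% of all windows). GC content was 51% for Pdgfra, 56.7% for Pdgfd, 73.3% for Pdgfa and 55% for Pdgfc, against a median of 52.7% over all windows. The motifs describe letters in these windows alone.

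Pdgfra, which encodes receptor alpha (gene ID 18595, mm10 chr5:75152291-75198204), was the member with the widest range between groups. In E18.5 mutant cells it ranged over 0.0909 to 575 RPKM with a median of 106 RPKM. In interstitium cells it ranged over 0 to 192 RPKM with a median of 16.3 RPKM, and in E18.5 cap cells over 0 to 97.4 RPKM with a median of 0. The 3 groups overlapped, but 23 of 44 E18.5 mutant cells reached 100 RPKM, against 8 of 71 interstitium cells and 0 of 74 E18.5 cap cells. Detection followed the same order, at 41 of 44 E18.5 mutant cells (93.2%, 81.3 to 98.6%), 58 of 71 interstitium cells (81.7%, 70.7 to 89.9%) and 8 of 74 E18.5 cap cells (10.8%, 4.78 to 20.2%).

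On the log2(RPKM + 1) scale, used for every group mean and difference here, Pdgfra averaged 6.11 ± 2.29 in E18.5 mutant cells, 3.88 ± 2.25 in interstitium cells and 0.47 ± 1.38 in E18.5 cap cells (SD between cells). The E18.5 mutant mean exceeded the E18.5 cap mean by 5.64 log2 units, and 99.95% of the 11100 genes compared had a smaller difference. The median of those genes was -0.40, so relative to it the Pdgfra difference was 6.05. Of all pairs made of 1 E18.5 mutant and 1 interstitium cell, 78.8% had the higher value in the mutant cell, and the means differed by 2.23, slightly less than the SD of 2.27 pooled over the cells of both groups. Among detected cells alone the mean was 6.53 ± 1.73 in E18.5 mutant and 4.70 ± 1.58 in interstitium cells, so the level differed as well as the share.

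Of the 3 E18.5 mutant cells under 1 RPKM for Pdgfra, 1 had 9 of 12 immune markers and held 0.864 RPKM. It was the single E18.5 mutant cell with 3 or more immune markers, and its other PDGF genes were at 0. The remaining pair had 9 and 8 of 12 stromal markers at 1 RPKM or more and Pdgfra at 0.0909 and 0.18 RPKM. In these cells Pdgfra was thus low although stromal genes were present.

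At E13.5 Pdgfra was sparse. It was detected in 8 of 29 E13.5 mutant cells (27.6%, 12.7 to 47.2%) and 1 of 18 E13.5 cap cells (5.56%, 0.141 to 27.3%). The E13.5 mutant cells ranged over 0 to 84.5 RPKM and the E13.5 cap cells over 0 to 42 RPKM, with a median of 0 in each. The means were 1.18 ± 1.93 in E13.5 mutant and 0.32 ± 1.28 in E13.5 cap cells, a difference of 0.85 that lies within the spread between cells. The single positive E13.5 cap cell gave 99.4% of its group's summed Pdgfra.

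**Figure D1:**
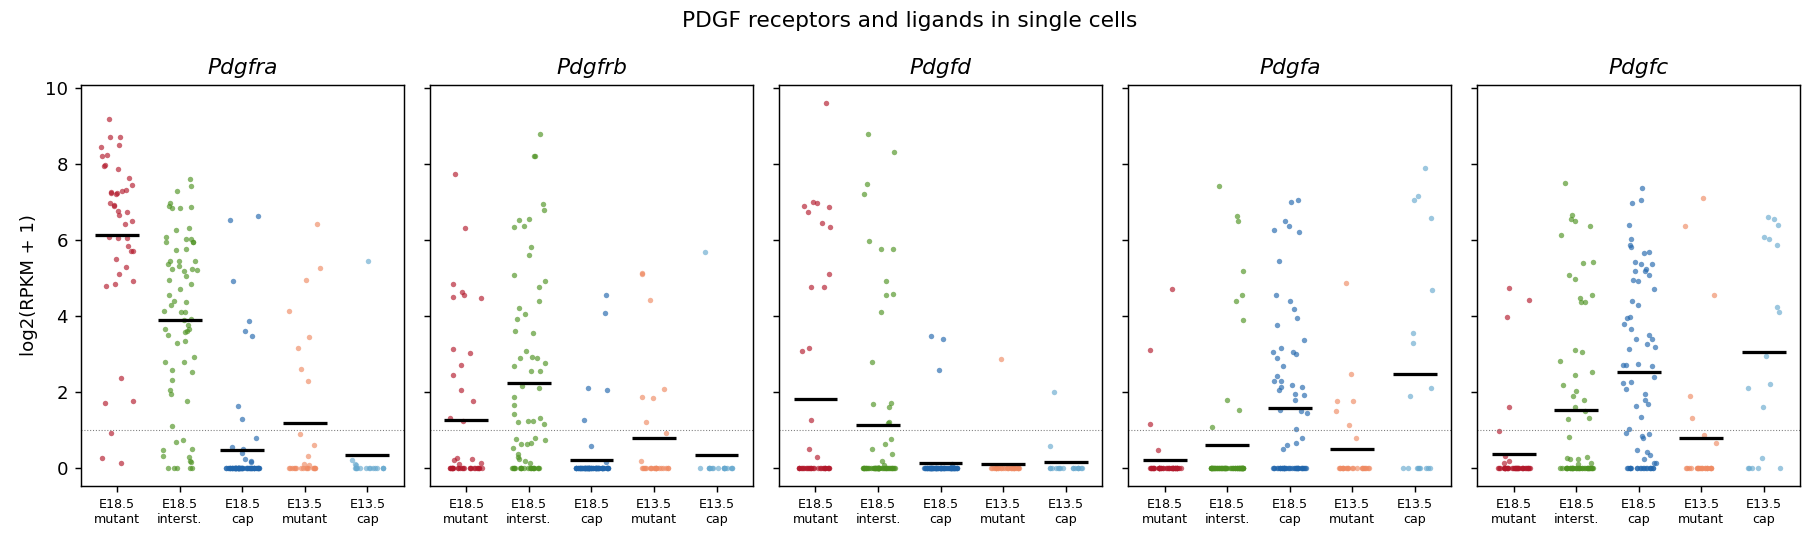
Level of 5 PDGF genes in each cell, as log2(RPKM + 1), by group; each point is 1 cell, black lines are group means and the dotted line is 1 RPKM. Pdgfra points of E18.5 mutant cells centre on a mean of 6.11, above the interstitium mean of 3.88, while Pdgfa and Pdgfc points are most frequent above the line in the cap groups.

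Pdgfrb, which encodes receptor beta (gene ID 18596, mm10 chr18:61045150-61085067), was highest in the interstitium. It ranged over 0 to 210 RPKM in E18.5 mutant cells, over 0 to 441 RPKM in interstitium cells with a median of 1.33 RPKM, and over 0 to 22.1 RPKM in E18.5 cap cells. Medians were 0 in the E18.5 mutant and E18.5 cap groups, and all 3 groups overlapped. It was detected in 15 of 44 E18.5 mutant cells (34.1%, 20.5 to 49.9%), 38 of 71 interstitium cells (53.5%, 41.3 to 65.5%) and 5 of 74 E18.5 cap cells (6.76%, 2.23 to 15.1%). At E13.5 it was detected in 7 of 29 mutant cells (24.1%, 10.3 to 43.5%) and 1 of 18 cap cells (5.56%, 0.141 to 27.3%).

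Mean Pdgfrb was 1.26 ± 2.03 in E18.5 mutant, 2.22 ± 2.51 in interstitium, 0.20 ± 0.78 in E18.5 cap, 0.78 ± 1.55 in E13.5 mutant and 0.32 ± 1.34 in E13.5 cap cells. In the order of means no neighbouring groups differed by more than the pooled SD between cells. For Pdgfra 1 step of that order did, from interstitium to E13.5 mutant, with a gap of 2.71 against an SD of 2.10. A single cell supplied 48% of all Pdgfrb RPKM in the E18.5 mutant group, and 22.6% in the interstitium. The excess of E18.5 mutant over E18.5 cap cells was 1.06, and 0.97 without the highest cell of each group, which is below 1 log2 unit. Interstitium exceeded E18.5 cap cells by 2.02.

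**Figure D2:**
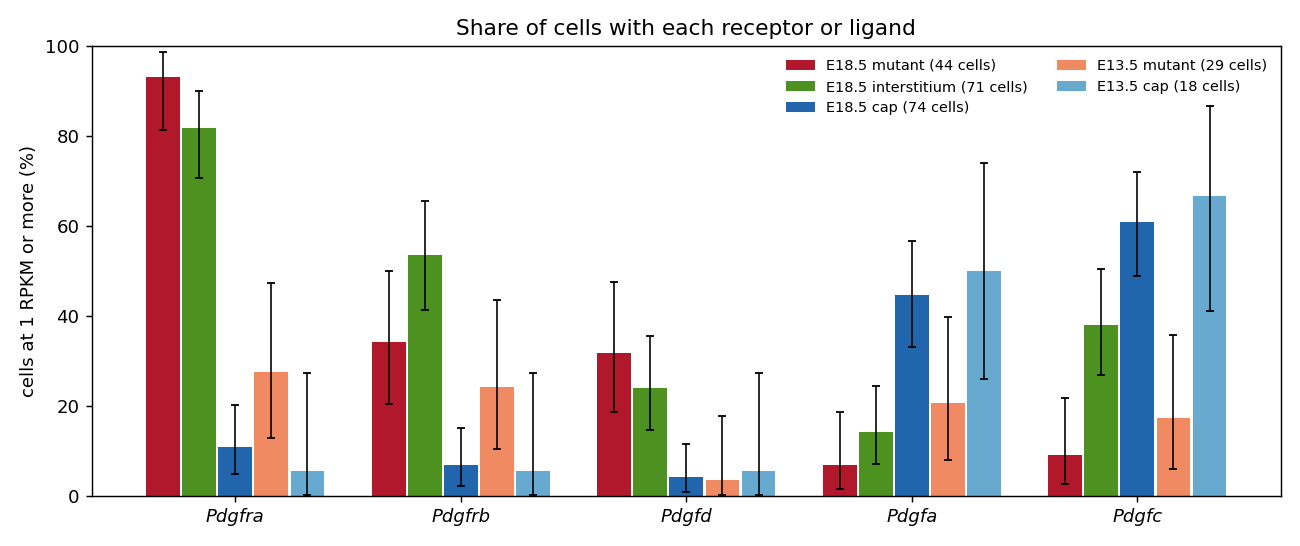
Percent of cells at 1 RPKM or more for each gene and group, with exact 95% Clopper-Pearson intervals for counting error as error bars. Pdgfra reaches 93.2% of E18.5 mutant and 81.7% of interstitium cells, and Pdgfc reaches 60.8% of E18.5 cap and 66.7% of E13.5 cap cells.

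The receptors were found together mainly in E18.5 mutant and interstitium cells. Of the 44 E18.5 mutant cells, 15 had both receptors (34.1%, 20.5 to 49.9%), 26 had Pdgfra alone, 0 had Pdgfrb alone and 3 had neither. Of the 71 interstitium cells, 35 had both (49.3%, 37.2 to 61.4%), 23 had Pdgfra alone, 3 had Pdgfrb alone and 10 had neither. Of the 74 E18.5 cap cells, 3 had both, 5 had Pdgfra alone, 2 had Pdgfrb alone and 64 had neither. Pdgfrb cells were thus largely a subset of Pdgfra cells. All 15 Pdgfrb cells of the E18.5 mutant group and 35 of 38 in the interstitium also had Pdgfra, where Pdgfra was detected in most cells in any case. At E13.5, 5 of 29 mutant cells had both (17.2%, 5.85 to 35.8%), 3 had Pdgfra alone and 2 had Pdgfrb alone. The single receptor-positive E13.5 cap cell had both.

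If the receptors were spread over cells independently, the product of their shares would be the share with both. It is 31.8% of E18.5 mutant and 43.7% of interstitium cells, against a measured 34.1% and 49.3%. Pdgfra was in most cells of these groups, which leaves the share with both little room to differ from the product. The likeness thus does not show independence. Pdgfrb was found in 60.3% (46.6 to 73%) of the 58 interstitium cells with Pdgfra. Among the 13 without Pdgfra the share was 23.1% (5.04 to 53.8%). In E18.5 mutant cells 3 lacked Pdgfra, too few for this split. In E18.5 cap cells the product is 0.73%, against a measured 4.05% (3 cells), and in E13.5 mutant cells 6.66%, against 17.2% (5 cells). E18.5 cap cells with Pdgfra had a median of 3965.5 genes detected and those without 5383, and E13.5 mutant cells with Pdgfra 4802 and those without 4288. The part of depth and of makeup within a group was not tested. As a description, Pearson's r between the receptor levels was 0.136 over 44 E18.5 mutant, 0.148 over 71 interstitium, 0.44 over 74 E18.5 cap and 0.561 over 29 E13.5 mutant cells. In E13.5 cap cells it was 0.999, where 1 cell held nearly all of both receptors.

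Where both were detected, Pdgfra was usually the higher one on the per-length RPKM scale in E18.5 mutant cells. It was higher in 13 of 15 such E18.5 mutant cells, with medians of 117 RPKM for Pdgfra and 7.66 RPKM for Pdgfrb. In the interstitium it was higher in 24 of 35 cells, with medians of 32.2 and 10.7 RPKM for Pdgfra and Pdgfrb. In E13.5 mutant cells Pdgfra was higher in 2 of 5. The 3 interstitium cells with Pdgfrb alone held 295, 121 and 1.67 RPKM of Pdgfrb.

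**Figure D3:**
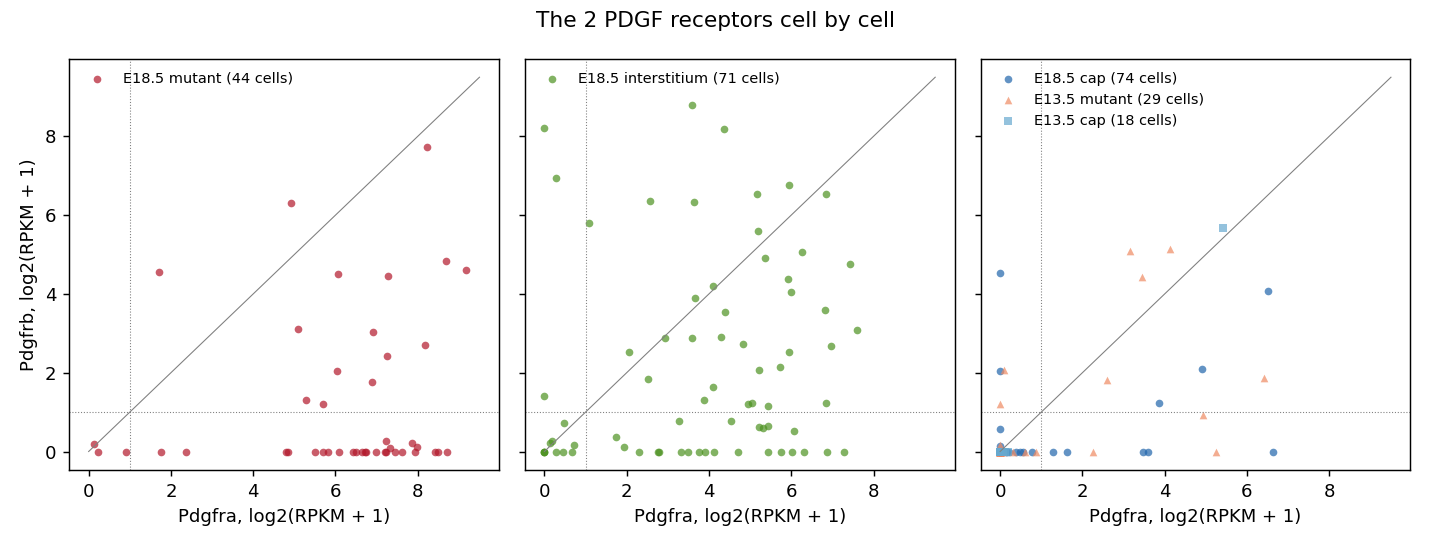
Pdgfrb against Pdgfra in each cell, both as log2(RPKM + 1), with dotted lines at 1 RPKM and a grey line of equal values; colours and symbols mark groups. In 13 of 15 E18.5 mutant cells with both receptors the point lies below the grey line, and interstitium cells lie on either side of it.

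The few Pdgfra-positive cells of the E18.5 cap group mostly lacked Six2, while Pdgfrb-positive ones were mixed. Of the 8 E18.5 cap cells with Pdgfra, 1 had Six2, against 61 of the 66 without Pdgfra, and 6 of the 8 had the collagen gene Col3a1, against 6 of the 66. Meis1, a stromal transcription factor gene that was also in 17 of 18 E13.5 cap cells, was in all 8, against 28 of 66. For Foxd1 the counts were 3 of 8 and 22 of 66. Of the 5 E18.5 cap cells with Pdgfrb, 3 had Six2, 3 had Foxd1 and 4 had Col3a1. The pair with Pdgfrb and no Pdgfra held 52.3 and 132 RPKM of Six2. They had 7 and 10 of 12 nephron progenitor markers and 0 and 7 of 12 stromal markers. The 8 E18.5 cap cells with Pdgfra held 97.4, 89.9, 28.9, 13.4, 11.1, 10.1, 2.06 and 1.43 RPKM of it. The cell at 13.4 RPKM was the one with Six2, at 206 RPKM, and it also had 72.9 RPKM of Pdgfa. It had 10 of 12 nephron progenitor markers and 4 of 12 stromal markers. The E13.5 cap cell with both receptors held 42 RPKM of Pdgfra and 50.4 RPKM of Pdgfrb, with 0 RPKM of Pax2, 0.137 RPKM of Six2, 23 RPKM of Foxd1 and 8 of 12 stromal markers. It had 3 of 12 mural markers and 0 of 12 endothelial markers. Without the 3 E13.5 cap cells that had 3 or more markers of the endothelial, immune or mural list, 0 of 15 had a receptor.

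In E13.5 mutant cells Pdgfra went with Foxd1: all 5 cells with Foxd1 had Pdgfra, against 3 of the 24 without. Pdgfra was found in 2 of the 17 E13.5 mutant cells that still had Pax2 and in 6 of the 12 that did not. In interstitium cells the same split gave Pdgfra in 10 of 18 cells with Pax2 and 48 of 53 without. These splits of a group compare cells, not embryos.

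The ligands Pdgfa and Pdgfc were most frequent in the wild-type cap groups. Pdgfa (gene ID 18590, mm10 chr5:138976972-138994953) encodes the A chain. Cells with it numbered 3 of 44 E18.5 mutant cells (6.82%, 1.43 to 18.7%), 10 of 71 interstitium cells (14.1%, 6.97 to 24.4%) and 33 of 74 E18.5 cap cells (44.6%, 33 to 56.6%). At E13.5 it was detected in 6 of 29 mutant cells (20.7%, 7.99 to 39.7%) and 9 of 18 cap cells (50%, 26 to 74%). Its highest values were 25.1 RPKM in E18.5 mutant, 170 RPKM in interstitium, 131 RPKM in E18.5 cap, 27.9 RPKM in E13.5 mutant and 234 RPKM in E13.5 cap cells.

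Mean Pdgfa was 0.21 ± 0.85 in E18.5 mutant, 0.60 ± 1.71 in interstitium, 1.56 ± 2.07 in E18.5 cap, 0.49 ± 1.08 in E13.5 mutant and 2.45 ± 2.98 in E13.5 cap cells. The differences of -1.35 between E18.5 mutant and E18.5 cap cells and of -1.96 between E13.5 mutant and E13.5 cap cells are each smaller than the pooled SD, 1.58 and 2.24.

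Pdgfc (gene ID 54635, mm10 chr3:81036416-81214031) encodes the C chain and was the most frequent ligand in the interstitium and in both cap groups, though not in the mutant groups. Cells with it numbered 4 of 44 E18.5 mutant cells (9.09%, 2.53 to 21.7%), 27 of 71 interstitium cells (38%, 26.8 to 50.3%) and 45 of 74 E18.5 cap cells (60.8%, 48.8 to 72%). At E13.5 it was detected in 5 of 29 mutant cells (17.2%, 5.85 to 35.8%) and 12 of 18 cap cells (66.7%, 41 to 86.7%). Mean Pdgfc was 0.37 ± 1.13 in E18.5 mutant, 1.52 ± 2.24 in interstitium, 2.51 ± 2.30 in E18.5 cap, 0.78 ± 1.89 in E13.5 mutant and 3.05 ± 2.68 in E13.5 cap cells. Its highest values were 25.2, 178, 162, 136 and 96.5 RPKM in the same order of groups. The E18.5 mutant mean was 2.14 below that of E18.5 cap cells, which exceeds the pooled SD of 1.81. The E13.5 mutant mean was 2.26 below that of E13.5 cap cells, against an SD of 2.32.

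Within the interstitium both ligands were more frequent among cells with nephron lineage transcripts, though 13 of its 27 Pdgfc cells had no Six2. Of its 19 cells with Six2, 8 had Pdgfa and 14 had Pdgfc, against 2 and 13 of the 52 cells without. By Pax2, 9 of 18 cells with it had Pdgfa, against 1 of 53 without, and 14 of 18 had Pdgfc, against 13 of 53 without. Pdgfra was also less frequent there, in 12 of 19 cells with Six2 and 46 of 52 without. Of the 10 interstitium cells with Pdgfa, 6 were among the 13 that lacked Pdgfra. In E18.5 cap cells 31 of the 62 with Six2 had Pdgfa, against 2 of the 12 without. Interstitium cells with Pdgfc had a median of 6057 genes detected and those without 4647, and among its 35 cells with 3000 to 5000 genes the share with Pdgfc was 17.1% and that with Pdgfa 5.71%. The part of depth in these counts was not tested.

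Pdgfd (gene ID 71785, mm10 chr9:6168612-6377519) encodes the D chain and, unlike the other detected ligands, was found mainly in E18.5 mutant and interstitium cells. It was detected in 14 of 44 E18.5 mutant cells (31.8%, 18.6 to 47.6%), 17 of 71 interstitium cells (23.9%, 14.6 to 35.5%) and 3 of 74 E18.5 cap cells (4.05%, 0.844 to 11.4%). At E13.5 a single cell of each group had it, at 6.24 RPKM in the mutant and 2.96 RPKM in the cap group. Values reached 770 RPKM in E18.5 mutant, 439 RPKM in interstitium and 10.1 RPKM in E18.5 cap cells. The cell at 770 RPKM gave 47.4% of the Pdgfd of its group, whose next highest cell had 127 RPKM. Mean Pdgfd was 1.81 ± 2.89 in E18.5 mutant, 1.13 ± 2.29 in interstitium and 0.13 ± 0.63 in E18.5 cap cells. The difference of 1.68 between E18.5 mutant and E18.5 cap cells is below the pooled SD of 2.09. All 14 Pdgfd cells of the E18.5 mutant group had Pdgfra, as did 41 of its 44 cells. Pdgfrb, the gene of the receptor that PDGF-D is known to bind, was in 4 of the 14, against 15 of all 44. In the interstitium 8 of 17 Pdgfd cells had Pdgfrb, against 38 of all 71 cells. Pdgfrb was thus no more frequent in Pdgfd cells than in their groups.

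Pdgfb (gene ID 18591, mm10 chr15:79995876-80014808), the B chain gene, is listed at 0 in all 237 cells. For comparison, 18447 of the 36186 entries are at 0 in every cell, and among 79 ribosomal protein gene entries Rpl10l and Rpl39l are. Without counts the table does not show whether Pdgfb could be measured, so no limit is drawn from these values. PDGF-B is known from endothelium, whose markers were near 0 here: 3 or more of 12 endothelial markers were found in 0 of 44 E18.5 mutant cells, 2 of 71 interstitium, 0 of 74 E18.5 cap, 0 of 29 E13.5 mutant and 1 of 18 E13.5 cap cells. That E13.5 cap cell had 10 of the 12 and held 10.6 RPKM of Pdgfa and 0 RPKM of Pdgfra, Pdgfrb and Pdgfb. The pair of interstitium cells had Pdgfra at 40.2 and 38.5 RPKM and Pdgfc at 32.5 and 69 RPKM.

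Receptor-positive and ligand-positive cells were then counted together. Both kinds of gene were in the same cell in 17 of 44 E18.5 mutant cells (38.6%, 24.4 to 54.5%), 33 of 71 interstitium cells (46.5%, 34.6 to 58.7%) and 6 of 74 E18.5 cap cells (8.11%, 3.03 to 16.8%), and in 3 of 29 E13.5 mutant and 0 of 18 E13.5 cap cells. A receptor without any ligand was found in 24 of 44 E18.5 mutant cells (54.5%, 38.9 to 69.6%), 28 of 71 interstitium cells (39.4%, 28 to 51.7%) and 4 of 74 E18.5 cap cells (5.41%, 1.49 to 13.3%). A ligand without any receptor was found in 0 of 44 E18.5 mutant cells (interval up to 8.04%), 8 of 71 interstitium cells (11.3%, 4.99 to 21%) and 49 of 74 E18.5 cap cells (66.2%, 54.3 to 76.8%). In E13.5 mutant cells 7 of 29 had a receptor alone and 8 of 29 a ligand alone, against 1 and 15 of 18 E13.5 cap cells. E13.5 mutant cells had no member in 11 of 29 cases (37.9%, 20.7 to 57.7%), the largest such share of the 5 groups. Both Pdgfa and Pdgfc were found together in 24 of 74 E18.5 cap cells and 6 of 18 E13.5 cap cells. The E18.5 mutant group had the lowest median of genes per cell, and the part of depth in these counts was not tested. Within cells of 3000 to 5000 genes the share with Pdgfc was 6.06% in E18.5 mutant and 57.7% in E18.5 cap cells.

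**Figure D4:**
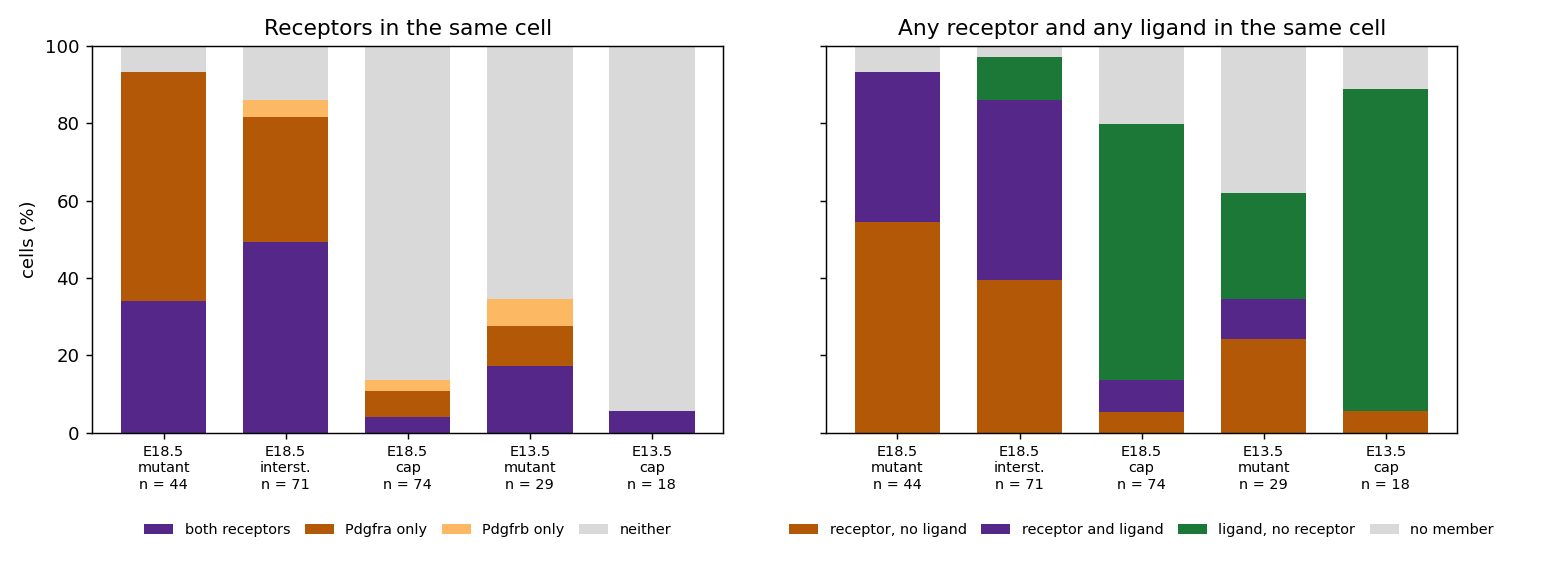
Percent of cells in each group by receptor (left) and by any receptor and any ligand (right), each cell counted once at 1 RPKM or more. Receptor classes fill most of the bars of E18.5 mutant and interstitium cells, and cells with a ligand and no receptor make up 66.2% of E18.5 cap and 83.3% of E13.5 cap cells.

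Group differences were set against all genes compared, meaning every gene detected in 10% of cells on at least 1 side, with 1 log2 unit as the rule of size. A gene that passes this filter on 1 side alone is likely to be higher on that side, so its direction is partly set by the filter. Between E18.5 mutant and E18.5 cap cells 3 of the 6 members (Pdgfra, Pdgfrb and Pdgfd) were higher, where 4.51% of all genes were. Lower were 2 (Pdgfa and Pdgfc), where 23.2% of all genes were. Pdgfra passed the filter in both groups and Pdgfb in neither. Pdgfrb and Pdgfd passed only through E18.5 mutant cells, and Pdgfa and Pdgfc only through E18.5 cap cells. These counts are therefore a description. Pdgfa at -1.35 is -0.95 relative to the median of all genes. Lower values were thus common in E18.5 mutant cells, and 14.9% of the genes compared had a lower difference than Pdgfa and 4.74% a lower one than Pdgfc. In cells with 3000 to 5000 genes, 33 of the E18.5 mutant and 26 of the E18.5 cap cells, the differences were 5.06 for Pdgfra, 1.90 for Pdgfd, 0.88 for Pdgfrb, -0.81 for Pdgfa and -1.85 for Pdgfc.

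Between interstitium and E18.5 cap cells 2 of the 6 members were higher (Pdgfra by 3.42 and Pdgfrb by 2.02), where 5.94% of all genes were. Lower were 0, where 2.7% of all genes were. Pdgfrb and Pdgfd passed the filter only through interstitium cells. Pdgfa was at -0.96, and Pdgfd and Pdgfc fell just short of 1 log2 unit on the higher and the lower side. Within pool 2 alone, with 22 interstitium and 74 cap cells, the differences were 3.73 for Pdgfra, 1.77 for Pdgfrb, 1.42 for Pdgfd, -1.29 for Pdgfc and -1.28 for Pdgfa, so all 5 pass it there. Between pools 2 and 3, Pdgfra was detected in 20 of 22 (90.9%, 70.8 to 98.9%) and 38 of 49 interstitium cells (77.6%, 63.4 to 88.2%), and Pdgfrb in 10 of 22 (45.5%, 24.4 to 67.8%) and 28 of 49 (57.1%, 42.2 to 71.2%).

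Between E18.5 mutant and interstitium cells Pdgfra was higher by 2.23, where 2.05% of all genes were higher. Pdgfc was lower by 1.15, where 23.4% of all genes were lower, and it passed the filter only through interstitium cells. Pdgfc is at -0.74 in cells with 3000 to 5000 genes, -0.86 against pool 2 interstitium cells and -0.74 relative to the median of all genes. Pdgfrb was at -0.96, with 24.4% of all genes lower than that. The E18.5 mutant cells therefore stood above the interstitium for receptor alpha and not for receptor beta. This comparison and the previous ones share groups, and their values are given side by side without a comparison between them.

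E13.5 mutant and E13.5 cap cells share a pool, but not the date in their titles nor, in most cells, the sex shown by their transcripts. Between them 0 members were higher by the rule, where 1.43% of all genes were. Lower by the rule were 2 (Pdgfa and Pdgfc), where 27.7% of all genes were. Relative to the median of all genes, -0.45, the differences were 1.30 for Pdgfra, 0.92 for Pdgfrb, -1.51 for Pdgfa and -1.82 for Pdgfc. Pdgfd was not compared, being under the 10% filter. For Pdgfra the difference was 1.09 without cells carrying 3 or more endothelial, immune or mural markers.

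Between ages, E18.5 cap and E13.5 cap cells differed by the rule in 0 of the 6 members, where 2.53% of all genes were higher and 14.5% lower. The values were 0.15 for Pdgfra, -0.53 for Pdgfc and -0.89 for Pdgfa, each below the pooled SD. E18.5 mutant cells were higher than E13.5 mutant cells in Pdgfra by 4.94 and in Pdgfd by 1.71, where 6.69% of all genes were higher. None of the members was lower there, where 11.5% of all genes were. Pdgfd passed the filter between the mutant groups only through E18.5 mutant cells. Pdgfrb differed by 0.48, Pdgfa by -0.28 and Pdgfc by -0.41. Age, pool and date cannot be told apart in these comparisons, nor can age and sex between the cap groups.

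**Figure D5:**
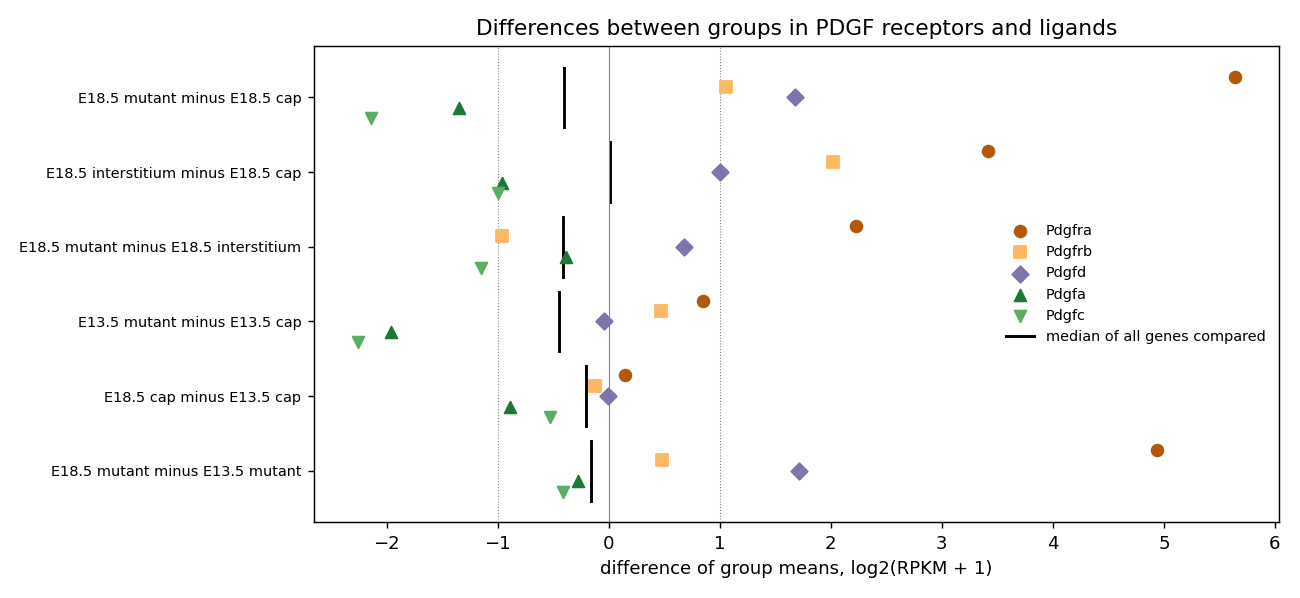
Difference of group means on the log2(RPKM + 1) scale for 5 members in 6 comparisons; the short black line is the median of all genes compared and dotted lines are 1 log2 unit. Pdgfra reaches 5.64 between E18.5 mutant and E18.5 cap cells and 4.94 between the mutant groups, and the symbols of Pdgfa and Pdgfc lie below 0 in each comparison.

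Between E18.5 mutant and E18.5 cap cells stromal markers were higher along with the receptors, while mural and mesangium markers went both ways. Of 12 stromal and fibroblast markers, 10 passed the filter between E18.5 mutant and E18.5 cap cells and all 10 were higher, where 4.51% of all genes were, with a median difference of 4.06. Their mean level per cell had a median of 4.03 in E18.5 mutant, 3.36 in interstitium, 0.44 in E18.5 cap, 1.22 in E13.5 mutant and 0.82 in E13.5 cap cells, with ranges of 1.20 to 8.38, 0.24 to 7.71, 0 to 4.31, 0.14 to 4.35 and 0.04 to 4.39. Of 12 mural and smooth muscle markers, 9 passed and 2 (Rgs5 and Acta2) were higher and 2 (Des and Mcam) lower, the lower share being near the 23.2% of all genes. Rgs5, a pericyte marker, averaged 3.13 in E18.5 mutant, 4.59 in interstitium and 0.93 in E18.5 cap cells, the same order as Pdgfrb. Not all of the list shared this order. Des averaged 0.42, 0.76 and 2.68 and Mcam 0.08, 0.64 and 1.10 in these groups, both highest in E18.5 cap cells. The mean level of the mural markers had medians of 0.65, 0.96 and 0.54, with ranges of 0.01 to 3.14, 0 to 2.73 and 0 to 1.92. In the same order of groups, 3 or more of them were detected in 8 of 44, 32 of 71 and 10 of 74 cells. Of 10 mesangium markers 4 passed, and Serpine2 was higher and Itga8 and Mcam were lower in E18.5 mutant than in E18.5 cap cells. Itga8 is also in the nephron progenitor list and Mcam in the mural list, so these are not separate counts. The part of these cell types in the receptor values was not tested.

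Genes most like each member were ranked by Pearson r over the cells of all 5 groups. The 7717 genes ranked were those detected in 20% of these cells. For Pdgfra these included Nfia (0.732), Col1a1 (0.732), Col3a1 (0.725) and Penk (0.716), against a median r of -0.0758. Within the 71 interstitium cells alone they were Nfia (0.553), Penk (0.509), Ntn1 (0.508), Daam2 (0.497) and Actb (0.485). Within the 44 E18.5 mutant cells the first for Pdgfra were Cdkn1c (0.594) and Igfbp5 (0.524). Over the cells of all 5 groups, those for Pdgfrb were S1pr3 (0.421), Ifitm3 (0.412), Fn1 (0.4), Nid1 (0.4) and Col1a1 (0.393). Over the same cells, those for Pdgfa were Trim2 (0.42), Pax2 (0.417), Myc (0.373), Fgf10 (0.371) and Cldn9 (0.366). Those for Pdgfc were Six2 (0.42), Eya1 (0.411), Phgdh (0.407), Crym (0.399) and Cldn9 (0.393). Other genes led within interstitium cells alone. The first there were Ets1 (0.435) and Cspg4 (0.394) for Pdgfrb, and Snord47 (0.495) and Nrm (0.491) for Pdgfc. The cells share groups, pools and depth, so these values describe the table and carry no test.

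Among genes that process the ligands, 8 were listed and 5 passed the filter between E18.5 mutant and E18.5 cap cells, of which 0 were higher and 1 was lower, a share near the 23.2% of all genes that were lower. That was Plat, tissue plasminogen activator, a protease known to activate PDGF-C. It averaged 1.10 ± 2.41 in E18.5 mutant, 3.35 ± 2.29 in interstitium and 2.43 ± 2.54 in E18.5 cap cells, and was detected in 8 of 44, 56 of 71 and 42 of 74. The convertase gene Pcsk5 averaged 1.44 ± 2.30 in E18.5 mutant, 2.69 ± 2.64 in interstitium and 0.67 ± 1.44 in E18.5 cap cells. Plau and St14, whose proteases are known to activate PDGF-D, were hardly found: Plau was detected in 3 of 44, 3 of 71 and 3 of 74 cells of these groups, and St14 was below 1 RPKM throughout.

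Of 10 genes for co-receptors and binding partners 9 passed, and between E18.5 mutant and E18.5 cap cells Lrp1, Cav1 and Thbs1 were higher and Slc9a3r1 was lower, where 4.51% of all genes were higher and 23.2% lower. Lrp1, a receptor that associates with receptor beta, averaged 1.68 ± 1.83 in E18.5 mutant, 1.46 ± 1.71 in interstitium and 0.52 ± 0.85 in E18.5 cap cells. Sparc, which binds PDGF-B, averaged 8.55, 8.44 and 7.94 in these groups. The median difference of the list was 0.37, against -0.40 for all genes.

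Of 22 genes for signalling next to the receptor 21 passed, and between E18.5 mutant and E18.5 cap cells 2 were higher and 2 lower, where 4.51% of all genes were higher and 23.2% lower, with a median of -0.13 against -0.40 for all genes. Pik3r1, which encodes the PI 3-kinase subunit that docks on activated receptors, averaged 4.27 ± 2.77 in E18.5 mutant, 3.66 ± 2.46 in interstitium and 1.53 ± 1.99 in E18.5 cap cells. At E13.5 it averaged 2.31 ± 2.31 in mutant and 1.27 ± 1.85 in cap cells, where it was the 1 gene of this list that was higher by the rule and Fyn and Crk were lower (1.43% of all genes were higher and 27.7% lower). Stat3 averaged 2.31 ± 2.77 in E18.5 mutant and 0.43 ± 1.26 in E18.5 cap cells. The adaptor genes Nck1 and Crk were lower in E18.5 mutant cells, at 0.99 and 1.54 against 2.41 and 3.07 in E18.5 cap cells.

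Of 12 genes that restrain receptor tyrosine kinases all passed, and between E18.5 mutant and E18.5 cap cells 0 were higher and 4 lower (Ptpn2, Spry1, Spry2 and Spry4), where 4.51% of all genes were higher and 23.2% lower. The median difference was -0.30, against -0.40 for all genes. Spry4, a Sprouty feedback inhibitor gene, averaged 0.32 in E18.5 mutant, 3.48 in interstitium and 2.47 in E18.5 cap cells, and was detected in 2 of 44, 44 of 71 and 34 of 74. Spry1 was detected in 1 of 44, 34 of 71 and 26 of 74. Between interstitium and E18.5 cap cells Spry2, Spry4 and Ptpn12 were higher and 0 of the 12 lower, where 5.94% of all genes were higher and 2.7% lower. E13.5 mutant cells were lower than E13.5 cap cells in 5 of the 10 that passed (Ptpn1, Ptpn2, Ptpn12, Spry1 and Spry4), where 27.7% of all genes were.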

How the data were processed

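RNA of flow-sorted kidney cells captured singly was sequenced. The authors deposited 1 table of RPKM for 36186 entries in 237 cells. Reads were aligned with TopHat to mm10, per the submitters' processing notes, and the gene models, the counting rule and TopHat's version are not given in the sources used here. RPKM holds no counts, so depth is unknown: low values of paired cells showed no steps (over 115 pairs, the 3 best filled ratio bins, each 0.02 log2 wide, held a median of 10.3%). The groups come from the labels' source, cell type, genotype and age fields, and 1 cell with conflicting labels entered no comparison. The highest correlation between any pair of cells was 0.809. No doublet caller was used.

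Group means and SDs were taken of log2(RPKM + 1), a scale that understates differences of low genes. Genes detected, meaning 1 RPKM, in 10% of cells on either side were compared. No test was made, because each group counts as 1 sample, and a difference of 1 log2 unit served as the rule of size. The members and gene lists were chosen with earlier results of these data known. The 16 lists hold 173 genes, all in the table. The text names the members, Six2, Pax2 and Foxd1, up to 4 genes of a list with the highest mean level in any group and the 5 genes most like each member. One of these is not reported here. Other list genes and single cells were chosen after their values were seen. Alternatives were other pseudocounts, detection limits, scalings and subsets of cells. The steps were tested on simulated data (Python 3.11.15, numpy 2.4.6, pandas 2.3.3, scipy 1.17.1, matplotlib 3.10.9). Of the marker lists, those of the nephron progenitor, committing nephron, podocyte and ureteric epithelium had 12, 6, 7 and 3 genes that passed the filter. Of these, 10, 2, 2 and 2 were lower in E18.5 mutant than in E18.5 cap cells, with 0, 1, 0 and 0 higher. In the nephrogenic interstitium list 12 passed, with 10 higher and 1 lower. Of all genes compared there, 23.2% were lower and 4.51% higher. The endothelial and immune lists, with 1 gene passing in each, had 0 in either direction.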

Additional observations from a re-analysis of the deposited data

How the results depend on the processing

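Depth per cell is unknown, 1 sample stands for each group, and a low value near 1 RPKM may or may not be found in another cell, so small shares and differences near 1 log2 unit are least firm. Differences of members moved by less than the SD between cells in 349 cases and by more in 11, and none past the rule changed sign. These cases include Pdgfb, which was at 0 throughout and could not move. The SD is also larger than many of the differences, so staying within it says little about how firm they are. Values moved further for Pdgfra with a pseudocount of 0.1 (8.32 for E18.5 mutant minus E18.5 cap, 5.74 for interstitium minus E18.5 cap) and 10 (3.06 and 1.44). The log2 ratio of group mean RPKM, to which single high cells contribute most by construction, gave for Pdgfrb 2.75 in E18.5 mutant minus E18.5 cap, 4.13 in interstitium minus E18.5 cap and -1.22 in E18.5 cap minus E13.5 cap. It gave for Pdgfd 4.83, 3.91 and 4.96 in E18.5 mutant minus E18.5 cap, interstitium minus E18.5 cap and E18.5 mutant minus E13.5 mutant, and for Pdgfa -2.06 in E18.5 mutant minus interstitium. In 14 cases a difference past 1 log2 unit came below it, 9 of them with a pseudocount of 10, in 30 it came past it, and in 10 a smaller one changed sign. A pseudocount of 10 left Pdgfra and no other member past the rule.

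Shares left their interval as follows. With any value above 0, the share with Pdgfra was 100% for E18.5 mutant, 92.96% for interstitium and 20.27% for E18.5 cap cells, Pdgfrb in 70.42% of interstitium cells, Pdgfc in 74.32% of E18.5 cap cells and both receptors in 67.61% of interstitium cells. At 5 RPKM or more, both receptors were in 20.45% of E18.5 mutant and 30.99% of interstitium cells, Pdgfrb in 36.62% and Pdgfc in 23.94% of interstitium cells, Pdgfc in 47.3% and Pdgfa in 25.68% of E18.5 cap cells, Pdgfa in 3.448% of E13.5 mutant cells and Pdgfd in 0% of E13.5 cap cells. In cells with 3000 to 5000 genes, Pdgfa was in 5.714% and Pdgfc in 17.14% of interstitium cells, and Pdgfa in 30.77% and Pdgfd in 0% of E18.5 cap cells. Such cells numbered 2 in the E13.5 cap group, so its values were not computed. In pool 2 Pdgfra was in 90.91% of interstitium cells. Without endothelial, immune or mural marker cells, Pdgfra, Pdgfrb and both were in 0% of E13.5 cap cells. The number of genes higher in E13.5 mutant than in E13.5 cap cells was 300 after median-ratio scaling, against 164. With that scaling the median of all genes was -0.30 there, against -0.45 as deposited, and -0.10 between the cap ages, against -0.21. Where no reason is given, the cause was not tested. No paired analysis was possible because each group counts as 1 sample and no label pairs cells across groups.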

Other observations

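Receptors and ligands of the same families as PDGF were read from lists of 6 and 8 genes. Between E18.5 mutant and E18.5 cap cells 5 of the 8 ligands passed the filter, with 1 higher (Figf) and 1 lower (Pgf). Of all genes compared there, 4.51% were higher and 23.2% lower. Of the 6 receptors 1 (Kit) passed, and it was neither. Csf1r averaged 0.18 in E18.5 mutant, 0.05 in interstitium and 0.00 in E18.5 cap cells. Figf, the gene of vascular endothelial growth factor D, averaged 4.50 ± 3.12 in E18.5 mutant, 1.51 ± 2.33 in interstitium, 0.28 ± 1.53 in E18.5 cap, 0.08 ± 0.44 in E13.5 mutant and 0.38 ± 1.51 in E13.5 cap cells (log2(RPKM + 1), SD between cells). It was detected in 34 of 44, 22 of 71, 3 of 74, 1 of 29 and 1 of 18 cells of these groups. This order of the E18.5 groups is that of Pdgfra and Pdgfd. Pgf, the gene of placental growth factor, averaged 0.18 ± 0.87 in E18.5 mutant, 0.46 ± 1.53 in interstitium, 1.93 ± 2.69 in E18.5 cap, 1.85 ± 3.08 in E13.5 mutant and 1.07 ± 2.14 in E13.5 cap cells. It was detected in 2 of 44, 7 of 71, 29 of 74, 12 of 29 and 4 of 18 cells. Of the related receptors, the share with Kit was 8 of 44 for E18.5 mutant, 10 of 71 for interstitium and 6 of 74 for E18.5 cap cells, and Flt3 and Flt1 were below 1 RPKM in every grouped cell. Of the other receptors listed, Kdr and Flt4 were detected in 0 and 0 of 44 E18.5 mutant, 3 and 1 of 71 interstitium, 0 and 7 of 74 E18.5 cap, 0 and 0 of 29 E13.5 mutant, and 1 and 2 of 18 E13.5 cap cells.

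A cell from E13.5, labelled as cap by its source and as interstitial by its cell type, held 18 RPKM of Pdgfc and 1.66 RPKM of Pdgfrb, with Pdgfra, Pdgfa, Pdgfb and Pdgfd at 0. It had 144 RPKM of Six2, 24.7 RPKM of Pax2, 0 RPKM of Foxd1 and 6570 genes at 1 RPKM or more.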
